A study of Mus musculus with 18 samples.

Results

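The apolipoproteins and the proteins that build and remodel lipoprotein particles were described here by 10 genes chosen by symbol: Apoa1, Apoa2, Apoa4, Apoa5, Apob, Apoc3, Apoe, Apom, Mttp and Lcat. They were 10 of the 17855 genes listed in the liver and AML12 tables together. All 10 had a row among the 16533 genes of the liver table and 8 had one among the 15579 genes of the AML12 table, where Apoa2 and Apoa4 were not analysed. Liver RNA came from 6 male B6.Cg-dock7m Leprdb/++/J mice (db/db), a strain in which the leptin receptor is defective and obesity and diabetes follow. Of these, 3 received recombinant mouse serum albumin (rMSA) intravenously at 1.5 mg per g of body weight, as 3 injections with 3 weeks between injections over 9 weeks, and 3 received an equal volume of saline. According to the methods, livers for omics were taken from fed mice. The age of the mice is not given in the sources used here. The other 12 libraries came from AML12, an established line of mouse hepatocytes labelled wild type, starved of serum overnight and then treated for 24 h with rMSA at 600 μM plus insulin at 10 nM, rMSA alone, insulin alone or vehicle (3 libraries each). All AML12 cultures had been grown before that in medium with insulin and dexamethasone. The labels do not say whether the 3 libraries of a treatment came from separate cultures, so the p-values in AML12 cells measure the spread between these libraries, which may be technical.

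Lipoproteins carry cholesterol and triglyceride through the blood in particles wrapped by apolipoproteins. In the hepatocyte, apolipoprotein B is loaded with lipid by the microsomal triglyceride transfer protein and leaves the cell as very low density lipoprotein (VLDL). Apolipoprotein A-I takes up cholesterol from cells to form high density lipoprotein (HDL), and lecithin-cholesterol acyltransferase esterifies that cholesterol in plasma. Apolipoproteins C-III and A-V act in opposite directions on the breakdown of circulating triglyceride, and apolipoprotein E is a ligand for the receptors that clear particle remnants.

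Values are TPM, which divides reads by transcript length and scales each library to the same total, so levels can be set side by side between genes of 1 library. TPM keeps no read count, and the depth behind each value is unknown. Differences were tested with limma on log2(TPM + 1) for genes that averaged 1 TPM or more over the libraries of a table, and "rose" and "fell" are used for an adjusted p under 0.05 (Benjamini-Hochberg over all tested genes). Adding 1 TPM makes the change of a gene near that level look smaller than it is.

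The labelled cell types were checked against marker genes. The 8 hepatocyte markers summed to between 82234 and 90603 TPM in rMSA livers and between 73991 and 90319 TPM in saline livers. Alb, which did not pass, carried much of that sum, while 1 of the 8 rose (Ttr) and 4 fell, with a median log2 fold change of -0.27. Those that fell were Cps1 (503 TPM in rMSA livers and 1438 TPM in saline livers), Cyp2e1 (3534 TPM in rMSA livers and 7877 TPM in saline livers), Serpina1a (3707 TPM in rMSA livers and 6293 TPM in saline livers) and Fgb (2396 TPM in rMSA livers and 4634 TPM in saline livers). In AML12 cells, the 7 of them with a row summed to between 736 and 1055 TPM over all libraries, Cps1, Cyp2e1 and Fgb stayed below 1 TPM in every library, Alb was between 23.6 and 93.9 TPM and Ttr between 37.3 and 268 TPM, and Trf, at 482 to 918 TPM, made up most of the sum. The bile duct keratin Krt19 was between 1012 and 1804 TPM there. In the liver, markers of other cell types moved with the treatment. The 6 cholangiocyte markers (Cftr below 1 TPM in every liver) summed to 77.0 to 167 TPM in rMSA livers and 22.5 to 38.3 TPM in saline livers. Spp1 alone made up 68.1 to 153 TPM of that in rMSA livers and 16.4 to 31.2 TPM in saline livers, and Sox9 averaged 2.66 TPM in rMSA livers and 2.20 TPM in saline livers. The 7 stellate cell and fibroblast markers summed to 254 to 336 TPM in rMSA livers and 112 to 234 TPM in saline livers. The sums of the 8 macrophage markers (280 to 423 TPM in rMSA livers, 285 to 482 TPM in saline livers) and of the 6 endothelial markers (151 to 158 TPM in rMSA livers, 105 to 156 TPM in saline livers) overlapped. Single macrophage markers differed all the same, and 1 of the 8 rose and 2 fell. Over all genes tested in liver, 21.8% rose and 8.38% fell. Means in rMSA and then saline livers were 3.20 and 37.6 TPM for Marco, 3.64 and 10.4 TPM for Timd4, and 48.8 and 29.6 TPM for Cd68. The part of these cell types in the results below was not tested, and in bulk tissue fewer cells of a type cannot be told apart from less RNA per cell.

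Of the 10 members, 4 lie in 1 cluster on chromosome 9 (RefSeq, GRCm38.p6), in the order Apoa1, Apoc3, Apoa4 and Apoa5 over 43.3 kb, with Apoc3 on the opposite strand to the others. The promoters of Apoa4 and Apoa1 are shown because these genes had the largest changes in liver, that of Apoa5 because this cluster member did not pass the test, that of Mttp because this assembly gene rose in liver, and that of Apob because it rose with rMSA in AML12 cells. Each line runs from 250 bases before the RefSeq start site to 50 bases from it on (300 bases, GRCm38.p6), 5′ to 3′ on the strand of the gene. The lone capital is the first transcribed base of the entry, and runs of capitals mark matches to the motifs searched.
Apoa4 promoter, chr9:46240594-46240893, plus strand: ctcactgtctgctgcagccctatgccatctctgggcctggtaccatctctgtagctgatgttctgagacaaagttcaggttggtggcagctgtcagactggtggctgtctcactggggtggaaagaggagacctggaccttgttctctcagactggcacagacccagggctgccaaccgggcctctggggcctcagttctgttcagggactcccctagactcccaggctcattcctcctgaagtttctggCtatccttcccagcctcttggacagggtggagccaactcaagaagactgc
Apoa1 promoter, chr9:46228380-46228679, plus strand: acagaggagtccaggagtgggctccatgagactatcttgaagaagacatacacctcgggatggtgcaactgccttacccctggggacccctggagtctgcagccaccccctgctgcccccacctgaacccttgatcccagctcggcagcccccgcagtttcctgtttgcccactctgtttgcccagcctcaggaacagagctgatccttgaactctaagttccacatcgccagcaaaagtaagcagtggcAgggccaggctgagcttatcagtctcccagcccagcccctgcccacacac
Apoa5 promoter, chr9:46268358-46268657, plus strand: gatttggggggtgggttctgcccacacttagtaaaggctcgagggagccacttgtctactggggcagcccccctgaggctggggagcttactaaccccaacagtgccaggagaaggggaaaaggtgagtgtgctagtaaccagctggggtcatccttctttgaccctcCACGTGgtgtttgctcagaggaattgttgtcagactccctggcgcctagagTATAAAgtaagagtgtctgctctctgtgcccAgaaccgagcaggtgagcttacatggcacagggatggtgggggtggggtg
Mttp promoter, chr3:138143369-138143668, minus strand: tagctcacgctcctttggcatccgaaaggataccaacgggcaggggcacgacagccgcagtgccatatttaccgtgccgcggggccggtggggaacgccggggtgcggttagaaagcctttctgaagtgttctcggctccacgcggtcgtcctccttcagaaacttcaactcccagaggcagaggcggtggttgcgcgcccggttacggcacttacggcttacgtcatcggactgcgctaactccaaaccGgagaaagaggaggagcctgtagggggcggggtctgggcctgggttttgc
Apob promoter, chr12:7977427-7977726, plus strand: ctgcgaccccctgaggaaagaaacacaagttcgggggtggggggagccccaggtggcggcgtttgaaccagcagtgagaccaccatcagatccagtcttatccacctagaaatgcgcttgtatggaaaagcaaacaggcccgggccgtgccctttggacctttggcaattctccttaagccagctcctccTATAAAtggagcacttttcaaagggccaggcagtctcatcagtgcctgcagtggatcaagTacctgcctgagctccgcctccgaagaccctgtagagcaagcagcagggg

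On both strands, 6 motifs were searched: the TATA box (TATAAA), an HNF4 site (CAAAGTCC), a sterol element (TCACNCCAC), an E-box (CACGTG), a nuclear receptor element (AGGTCA) and DR1, which is a direct repeat of that element with 1 base between and so contains it. The Apoa5 window held a TATA box 31 bases before its start site and an E-box 82 bases before it. A second Apoa5 entry starts 25 bases further on, which puts the same matches 56 and 107 bases before its start. The Apob window held a TATA box 60 bases before its start site, but that entry starts 48 bases after the RefSeq start of the gene, 12 bases before which the match lies. TATAAA occurred in 13.6% and CACGTG in 7.15% of the 32851 windows of this length in the table. The windows of Apoa4, Apoa1 and Mttp held none of the 6, nor did those of Lcat and Apom. AGGTCA occurred in 16.3% of all windows, CAAAGTCC in 1.42%, the sterol element in 1.24% and DR1 in 0.0396%. These are matches of letters and no sites of binding, and a window without a match says only that these letters are not in it.

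**Figure D1:**
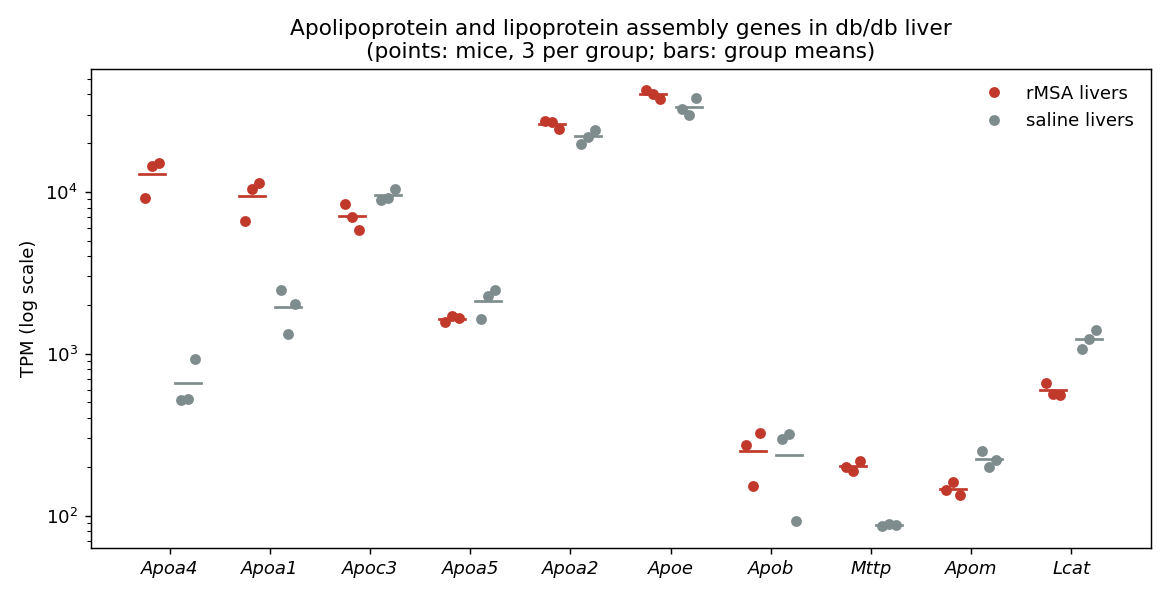
TPM of the 10 members in each db/db liver on a log axis, with rMSA livers in red to the left of saline livers in grey and a bar at each group mean (3 mice per group). Apoa4 and Apoa1 stand apart by the widest gaps, Mttp is higher and Lcat and Apom are lower in all 3 rMSA livers, and Apoe, Apob and Apoa5 overlap.

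In the livers, 5 of the 10 members passed the test. Apoa4, Apoa1 and Mttp rose, against 21.8% of the 11398 genes tested that rose. Lcat and Apom fell, against 8.38% of the genes tested that fell. The split of all genes depended on the scaling: 2487 rose and 955 fell as deposited, against 1642 and 1496 with each library centred on the median of all genes. Of the 5, 4 (Apom is the exception) also differed by 1 or more on the log2 scale, which together with the test held for 8.61% of all genes. The groups did not overlap for 7 members, against 45.6% of all genes tested. The median log2 fold change was 0.23 over the 10 members and 0.12 over all genes tested.

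Apolipoprotein A-IV, a component of HDL and of chylomicrons that in mice is made by both intestine and liver, had the largest change of the members. Apoa4 was at 9184, 14406 and 15158 TPM in the rMSA livers, against 520.5, 524 and 933 TPM in the saline livers. The lowest rMSA liver was far above the highest saline liver. The ratio of the group means was 19.6, and the log2 fold change was 4.31 ± 0.27 (SE, n = 3 each, limma adjusted p = 2.76e-05). Apoa4 ranked 12, 6 and 4 among all genes by TPM in the rMSA livers and 266, 264 and 142 in the saline livers. The genes Gm47528 and Gm10680 overlap it in the GENCODE annotation, and reads of overlapping genes cannot be separated where the strand setting of the counting is not given. The same limit holds for Mttp (overlapped by Gm43691 and Trmt10a), Lcat (Gm16156) and Apoa5 (Gm47544).

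Apolipoprotein A-I, the main structural protein of HDL, was at 6605, 10423 and 11376 TPM in the rMSA livers, against 2483, 1330 and 2018 TPM in the saline livers. Apoa1 means were 9468 ± 2525 TPM in rMSA livers and 1944 ± 580 TPM in saline livers (SD, n = 3 each), with a log2 fold change of 2.29 ± 0.27 (SE, adjusted p = 5.57e-04). Among the rMSA livers, liver 1 was lowest for both Apoa1 and Apoa4. Fabp2, a fatty acid binding protein best known from enterocytes, rose too, at 128, 125 and 152 TPM in rMSA livers and 34.2, 47.8 and 22.3 TPM in saline livers (log2 fold change 1.99, adjusted p = 6.06e-04). Within each group its order of livers was not that of Apoa1 or Apoa4. Of the other 4 enterocyte markers on the list, Vil1 was at most 0.37 TPM in any liver and Alpi, Sis and Lct were not analysed in this table.

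Apolipoprotein A-II, the second structural protein of HDL, was already the third highest gene in all 6 livers. Apoa2 was at 27393, 27096 and 24579 TPM in rMSA livers and 19784, 21937 and 24248 TPM in saline livers. The groups did not overlap, although rMSA liver 3 and saline liver 3 lay close together, and the log2 fold change of 0.26 (95% interval -0.09 to 0.62) did not pass (adjusted p = 0.245). Apolipoprotein M, which carries sphingosine-1-phosphate on HDL, fell. Apom was at 145, 161 and 133 TPM in rMSA livers, against 249.2, 199 and 222 TPM in saline livers (log2 fold change -0.60 ± 0.12, SE, adjusted p = 0.00632). Lecithin-cholesterol acyltransferase fell further. Lcat was at 662, 564 and 555 TPM in rMSA livers, against 1077, 1227 and 1401 TPM in saline livers, with a log2 fold change of -1.05 ± 0.13 (SE, adjusted p = 6.74e-04). For Apom and Lcat all 3 rMSA livers lay below all 3 saline livers. Of the genes of HDL, Apoa1 and Apoa4 therefore rose while Lcat and Apom fell in the same animals.

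Of the pair that assembles VLDL, Mttp rose. Mttp was at 200, 188 and 217 TPM in rMSA livers, against 86.5, 88.2 and 87.6 TPM in saline livers. The saline livers lay close together and below every rMSA liver, and the log2 fold change was 1.19 ± 0.09 (SE, adjusted p = 7.08e-05). Apob was at 272, 152 and 325 TPM in rMSA livers and 298, 317 and 92.6 TPM in saline livers. It was low in rMSA liver 2 and in saline liver 3, the groups overlapped, and its log2 fold change of 0.20 had the widest 95% interval of the members (-0.87 to 1.27, adjusted p = 0.786). These are the livers in which genes with long transcripts were lowest as a class. Over 523 genes with a longest transcript of at least 8000 bases, the median log2 deviation from each gene's mean was -0.23 in rMSA liver 2 and -0.24 in saline liver 3, and between -0.03 and 0.26 in the other livers. The longest Apob transcript has 13934 bases, and whether its low values come with that class was not tested.

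Both regulators of triglyceride breakdown were lower on average in rMSA livers without passing the test. Apoc3, whose product slows lipoprotein lipase and remnant uptake, was at 8378, 6996 and 5786 TPM in rMSA livers and 8961, 9179 and 10444 TPM in saline livers. The groups did not overlap, and the log2 fold change was -0.45 (unadjusted 95% interval -0.83 to -0.07, adjusted p = 0.0761). It passed in 2 of the alternatives tried, without rMSA liver 1 (-0.58, adjusted p = 0.0337) and with the trend on transcript length removed (-0.69, adjusted p = 0.0126). Apoa5, whose product promotes lipolysis, was at 1568, 1712 and 1658 TPM in rMSA livers and 1645, 2283 and 2462 TPM in saline livers. Saline liver 1 lay within the range of the rMSA livers, and the log2 fold change was -0.35 (adjusted p = 0.132), or -0.53 without that liver (adjusted p = 0.0188). Apoe, the remnant ligand, was the highest member and ranked first or second among all genes in every liver. It was at 42339, 39977 and 37656 TPM in rMSA livers and 32258, 30003 and 37747 TPM in saline livers. The groups overlapped at saline liver 3, and the log2 fold change was 0.27 (95% interval -0.12 to 0.66, adjusted p = 0.277).

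Together the 10 members made up 9.67%, 10.2% and 9.74% of all TPM in the rMSA livers, against 6.74%, 6.71% and 7.97% in the saline livers. Without Apoe the shares were 5.44%, 6.17% and 5.98% in rMSA livers and 3.51%, 3.71% and 4.19% in saline livers. Since TPM is a share of a fixed total, a larger share for these genes leaves less for the others. With each library centred on the median of all genes, after which all genes had a median change of -0.02 (log2), the same 5 members passed and Apoa4 had a log2 fold change of 4.17. Genes with short transcripts (up to 2000 bases) were higher as a class in rMSA livers, with median log2 deviations of 0.05 to 0.13 against -0.12 to -0.06 in saline livers. All members but Apoa5, Apob and Mttp have a longest transcript under 2000 bases. With the trend on length removed, an alternative chosen after seeing the data, the log2 fold changes were 4.15 for Apoa4, 2.07 for Apoa1, 1.07 for Mttp, -0.82 for Apom and -1.25 for Lcat.

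**Figure D2:**
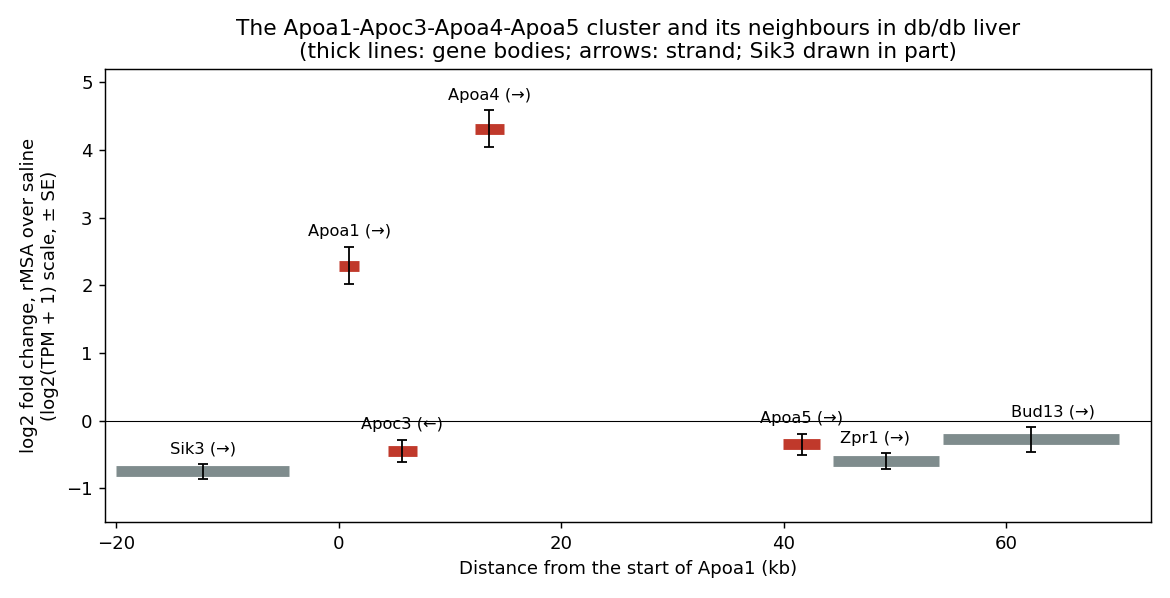
Log2 fold change (rMSA over saline livers, ± SE) against the distance in kb from the start of Apoa1, with thick lines for gene bodies (red for apolipoproteins, grey for neighbours) and arrows for the strand. Apoa1 (2.29) and Apoa4 (4.31) lie above zero on either side of Apoc3 (-0.45), and Apoa5 (-0.35), Zpr1 (-0.60) and Bud13 (-0.27) lie below zero.

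Within the cluster, members next to each other differed in direction. Apoc3, which did not pass, lies between Apoa1 and Apoa4, which rose, at 2.58 kb from the first and 5.21 kb from the second, while 25.1 kb separate Apoa4 from Apoa5. The ratio of Apoc3 to Apoa1 within a library does not depend on the scaling of the library. It was 1.27, 0.671 and 0.509 in rMSA livers, against 3.61, 6.90 and 5.17 in saline livers. The ratio of Apoc3 to Apoa4, chosen after the values were seen, was 0.912, 0.486 and 0.382 in rMSA livers and 17.2, 17.5 and 11.2 in saline livers. Apoc3 was thus the higher of the pair in every saline liver and the lower in every rMSA liver. The ratio of Apoa5 to Apoc3 was 0.187, 0.245 and 0.287 in rMSA livers and 0.184, 0.249 and 0.236 in saline livers, which overlap. Apom to Apoa1 was lower in every rMSA liver than in every saline liver (0.0219, 0.0155 and 0.0117 in rMSA livers, 0.1003, 0.149 and 0.1099 in saline livers), as was Apoa2 to Apoa1 (4.15, 2.60 and 2.16 in rMSA livers, 7.97, 16.5 and 12.01 in saline livers), and Mttp to Apob overlapped (0.735, 1.23 and 0.667 in rMSA livers, 0.290, 0.278 and 0.946 in saline livers). Each ratio without overlap had an exact two-sided permutation p of 0.1, which is the smallest that 3 against 3 allows, and 0.14 after adjustment over the 7 ratios computed. Outside the cluster, Sik3, a kinase gene upstream of Apoa1, fell (19.5 TPM in rMSA livers and 33.4 TPM in saline livers, log2 fold change -0.75, adjusted p = 0.00145). Zpr1, downstream of Apoa5, fell too (28.0 TPM in rMSA livers and 43.1 TPM in saline livers, -0.60, adjusted p = 0.00601), and Bud13 did not pass (-0.27, adjusted p = 0.299).

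Apoe lies in a second cluster, on chromosome 7, with Apoc1, Apoc4 and Apoc2 on the same strand. There too the genes differed. Apoc2, the activator of lipoprotein lipase, rose to 1188, 1141 and 1109 TPM in rMSA livers, against 488, 355 and 534 TPM in saline livers (log2 fold change 1.34, adjusted p = 4.61e-04). Apoc1 fell to 14435, 13841 and 12663 TPM in rMSA livers, against 18457, 18189 and 22394 TPM in saline livers (-0.52, adjusted p = 0.0330). The ratio of Apoc1 to Apoc2, also chosen after the values were seen, was 12.2, 12.1 and 11.4 in rMSA livers and 37.8, 51.3 and 41.9 in saline livers, without overlap. Apoc4, between Apoc1 and Apoc2, had a log2 fold change of 0.03 (adjusted p = 0.898). The annotated gene Gm44805 overlaps Apoc2 and Apoc4 and has its own row (log2 fold change 0.30, adjusted p = 0.0960), so that reads of the 3 could be split between them.

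**Figure D3:**
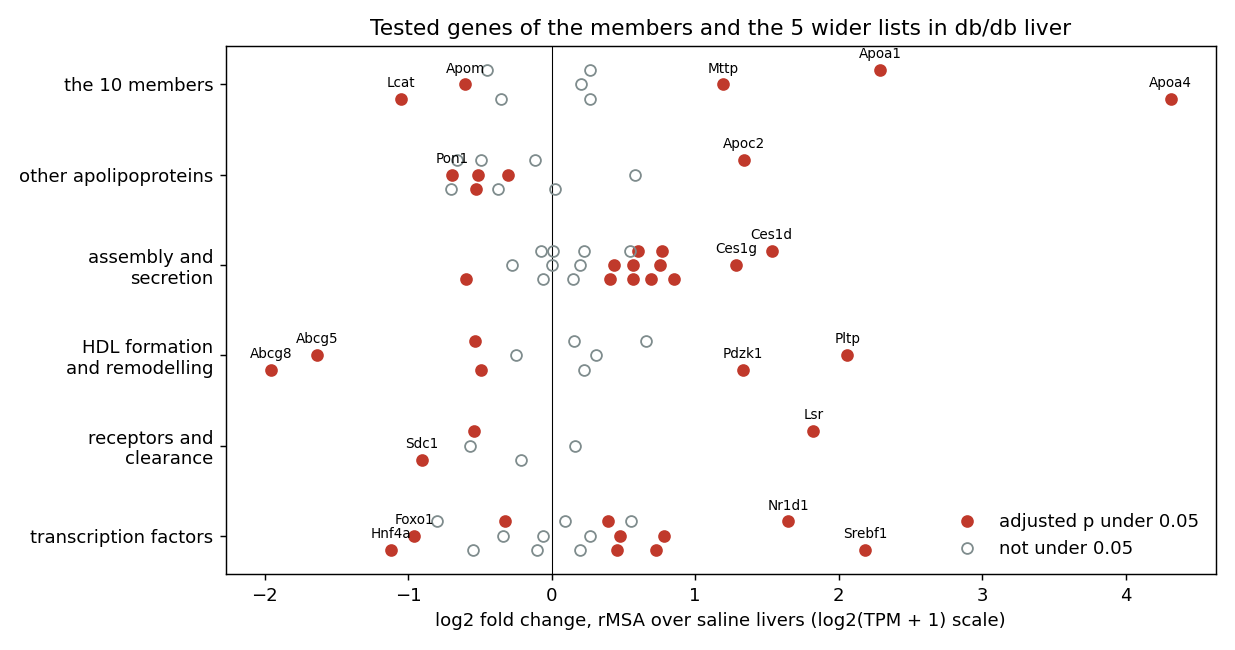
Log2 fold changes in liver (rMSA over saline) of the 10 members and of the tested genes reported from the 5 wider lists, filled where the adjusted p was under 0.05. Of the assembly and secretion genes 11 filled points lie above zero and 1 below, and among the genes drawn outside the members Srebf1 (2.18) and Pltp (2.06) lie farthest above zero.

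The other genes of the pathway were taken from 5 lists. Of the 21 genes of assembly and secretion, all tested, 11 rose, 1 fell and 9 did not pass, and their median log2 fold change was 0.43 beside 0.12 over all genes tested. With median centring 6 rose and 1 fell. Over all genes tested in liver, 21.8% rose and 8.38% fell. With median centring, 1642 of the 11398 genes rose and 1496 fell. Ces1d and Ces1g, carboxylesterases that handle stored triglyceride and VLDL lipid, averaged 666 and 240 TPM in rMSA livers, against 230 and 98.1 TPM in saline livers (log2 fold changes 1.53 and 1.28). Lpcat3, which makes polyunsaturated phospholipid for VLDL, rose by 0.77, and Apobec1, the enzyme that edits Apob mRNA, by 0.85. The gene that fell was Dgat1, a triglyceride synthase (-0.60, named after its value was seen). Of the 12 tested of 13 other apolipoproteins and lipoprotein-bound proteins, 1 rose (Apoc2), 4 fell and 7 did not pass, with a median of -0.44. Besides Apoc1, those that fell included Apoh (2280 TPM in rMSA livers and 3262 TPM in saline livers, not past the test with quantile normalization) and Pon1, an HDL-bound esterase (501 TPM in rMSA livers and 827 TPM in saline livers).

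Of the 11 genes of HDL formation and remodelling, 2 rose, 4 fell and 5 did not pass (median 0.15). For this list and the next, 21.8% of all genes tested rose and 8.38% fell. Pltp, the phospholipid transfer protein, rose to 117, 109 and 105 TPM in rMSA livers, against 32.0, 23.6 and 22.6 TPM in saline livers (log2 fold change 2.06, adjusted p = 4.16e-05), and Pdzk1, an adaptor of the HDL receptor, rose by 1.33. Abcg5 and Abcg8, the paired transporters that move sterols into bile, fell together. Abcg8 was at 28.6, 31.7 and 38.5 TPM in rMSA livers, against 175, 97.1 and 128 TPM in saline livers (-1.96, adjusted p = 3.26e-04), and Abcg5 changed by -1.64. Of the 9 tested of 10 genes of lipoprotein receptors and clearance, 3 rose, 2 fell and 4 did not pass (median -0.22). Lsr, a receptor for triglyceride-rich particles, rose by 1.82, and the heparan sulfate proteoglycan Sdc1 fell (-0.90).

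Of the 20 tested of 21 transcription factors known to act on these genes, 7 rose, 3 fell and 10 did not pass (median 0.15), whereas with median centring 4 rose and 5 fell. Among all genes tested, 21.8% rose and 8.38% fell, and with median centring 1642 of 11398 rose and 1496 fell. Srebf1, a driver of lipid synthesis, averaged 246 ± 35 TPM in rMSA livers and 54.1 ± 12.6 TPM in saline livers (SD, n = 3 each, log2 fold change 2.18). Nr1d1, a repressor of the circadian clock, rose by 1.65. Hnf4a, the nuclear receptor at the head of the hepatocyte program, was at 219, 211 and 259 TPM in rMSA livers, against 494, 455 and 549 TPM in saline livers (-1.12, adjusted p = 2.96e-04), and Foxo1, which insulin signalling holds inactive, changed by -0.96. These are mRNA levels, and no activity of a factor was measured.

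**Figure D4:**
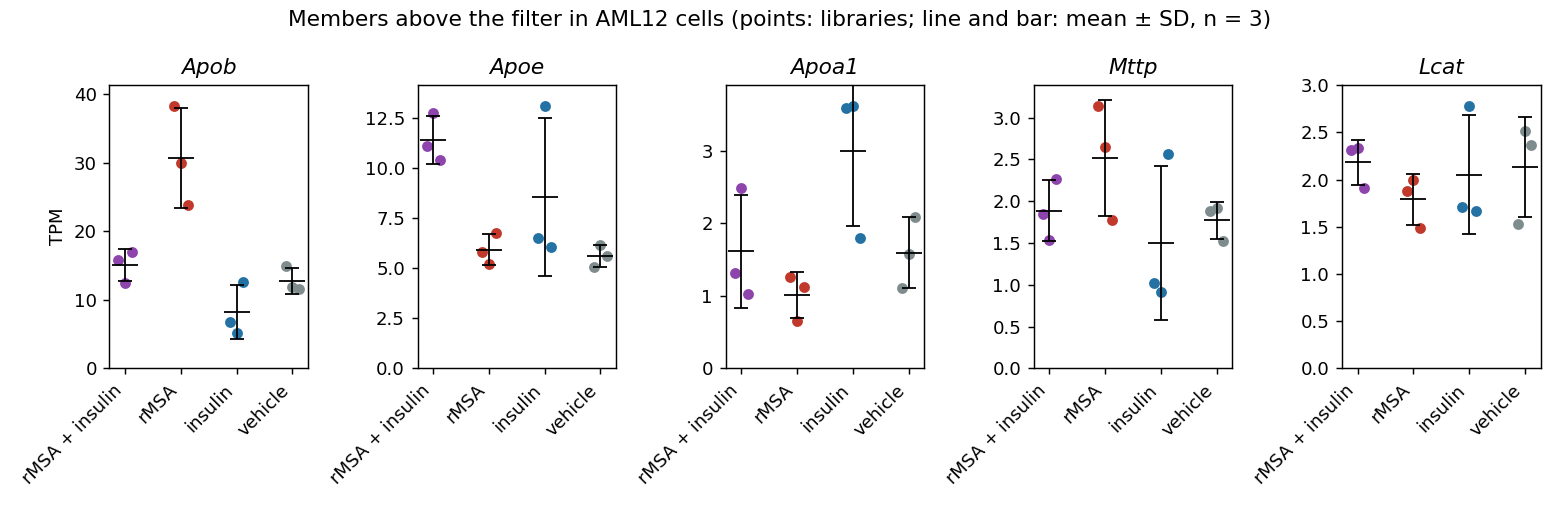
TPM in AML12 cells of the 5 members that passed the filter, in the order rMSA + insulin, rMSA, insulin and vehicle, with points for libraries and a line and bar for mean ± SD (n = 3). All 3 rMSA libraries are above the other groups for Apob, and the 3 rMSA + insulin libraries are above the rMSA and the vehicle libraries for Apoe.

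In AML12 cells, the members were expressed at low levels. The 8 members with a row summed to 0.00329%, 0.00321% and 0.00335% of all TPM with rMSA + insulin, 0.00517%, 0.00406% and 0.00354% with rMSA, 0.00204%, 0.00263% and 0.00256% with insulin, and 0.00249%, 0.00243% and 0.00236% with vehicle. Liver and AML12 tables were made separately, so the levels are side by side without a test. Over all 12 libraries Apoa5 was at most 0.08 TPM, Apom at most 0.54 TPM and Apoc3 at most 0.69 TPM, each with libraries listed at 0, and these 3 members were below the filter. The 5 tested were Apob, Apoe, Apoa1, Lcat and Mttp. By group mean, Apob had the order rMSA, rMSA + insulin, vehicle and insulin, and only the first 2 of these neighbours did not overlap. For the other members, no neighbours in the order of group means were free of overlap.

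Of the 5 tested members, 1 rose with rMSA against vehicle, where 7.80% of the 10826 genes tested passed in either direction. Apob was at 38.3, 29.9 and 23.9 TPM with rMSA, against 15.0, 11.8 and 11.6 TPM with vehicle. All 3 rMSA libraries were above all 3 vehicle libraries, and groups without overlap in either direction were found for 39.6% of all genes tested. The log2 fold change was 1.18 ± 0.27 (SE, n = 3 each, adjusted p = 0.0217). The call was lost on leaving out rMSA library 1 or 2 or vehicle library 2 or 3, with an adjusted p of 0.0310 to 0.106 over the 6 libraries left out in turn. The other 4 did not pass and overlapped. Apoe was at 5.84, 5.22 and 6.76 TPM with rMSA and 5.05, 6.19 and 5.63 TPM with vehicle (log2 fold change 0.07, adjusted p = 0.969). Apoa1 averaged 1.01 TPM with rMSA and 1.59 TPM with vehicle (-0.36, adjusted p = 0.581), Mttp 2.52 TPM with rMSA and 1.77 TPM with vehicle (0.33, adjusted p = 0.582) and Lcat 1.79 TPM with rMSA and 2.14 TPM with vehicle (-0.16, adjusted p = 0.798).

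With insulin present, Apob was at 15.8, 12.5 and 17.0 TPM with rMSA + insulin and 6.81, 5.24 and 12.7 TPM with insulin. Insulin libraries 1 and 2 were low and insulin library 3 overlapped the rMSA + insulin libraries. The log2 fold change was 0.87 ± 0.27 (SE, adjusted p = 0.0511), and 0 of the 5 members passed, against 17.3% of all genes (2 members were at an unadjusted p under 0.05). Without insulin library 3 the Apob difference was 1.19 (adjusted p = 0.00146), and against insulin library 3 alone it was 0.22, a value with no spread of its own on the insulin side. Apoe was at 11.1, 12.8 and 10.4 TPM with rMSA + insulin and 6.51, 13.1 and 6.08 TPM with insulin (0.45, adjusted p = 0.225), and its difference from insulin library 3 alone was 0.81. Apoa1 was at 1.32, 2.49 and 1.03 TPM with rMSA + insulin and 3.59, 3.62 and 1.80 TPM with insulin (-0.62, adjusted p = 0.130).

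Against the cells given rMSA alone, those given rMSA + insulin had Apoe above (1.92 times by group mean, log2 fold change 0.84, adjusted p = 0.0706) and Apob below (0.491 times, -0.97, adjusted p = 0.0735), in both cases without overlap, as were 55.7% of all genes tested, and 0 of the 5 members passed, against 4.05% of all genes. With only these 2 groups in the fit both passed (adjusted p = 0.00548 for Apoe and 0.00812 for Apob), where 4622 of the 10826 genes tested passed. Against vehicle, 1 of the 5 members passed with rMSA + insulin, where 20.2% of all genes did. Apoe was at 11.1, 12.8 and 10.4 TPM with rMSA + insulin, against 5.05, 6.19 and 5.63 TPM with vehicle (0.91 ± 0.23, SE, adjusted p = 0.0196), without overlap, as were 62.8% of all genes. That call was lost on leaving out rMSA + insulin library 1 or 2 or vehicle library 1 or 3 (adjusted p of 0.0439 to 0.0800 over the 6 libraries left out in turn). Apob did not pass in that comparison (15.1 TPM with rMSA + insulin and 12.8 TPM with vehicle, 0.22, adjusted p = 0.582).

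For insulin against vehicle, limma passed 0.00% of the 10826 genes, although 3969 were at an unadjusted p under 0.05, and none of the 5 members, of which 2 were at an unadjusted p under 0.05. Apob was at 6.81, 5.24 and 12.7 TPM with insulin and 15.0, 11.8 and 11.6 TPM with vehicle (log2 fold change -0.65, adjusted p = 0.135). The counts turned on insulin library 3. Without it 7415 genes passed and 4 of the members, Apob, Apoe and Apoa1 among them, and that library alone differed from vehicle by -0.01 for Apob. The interaction of rMSA and insulin passed for 0.0369% of all genes (4 genes) and for 0 of the 5 members, with no member at an unadjusted p under 0.05.

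**Figure D5:**
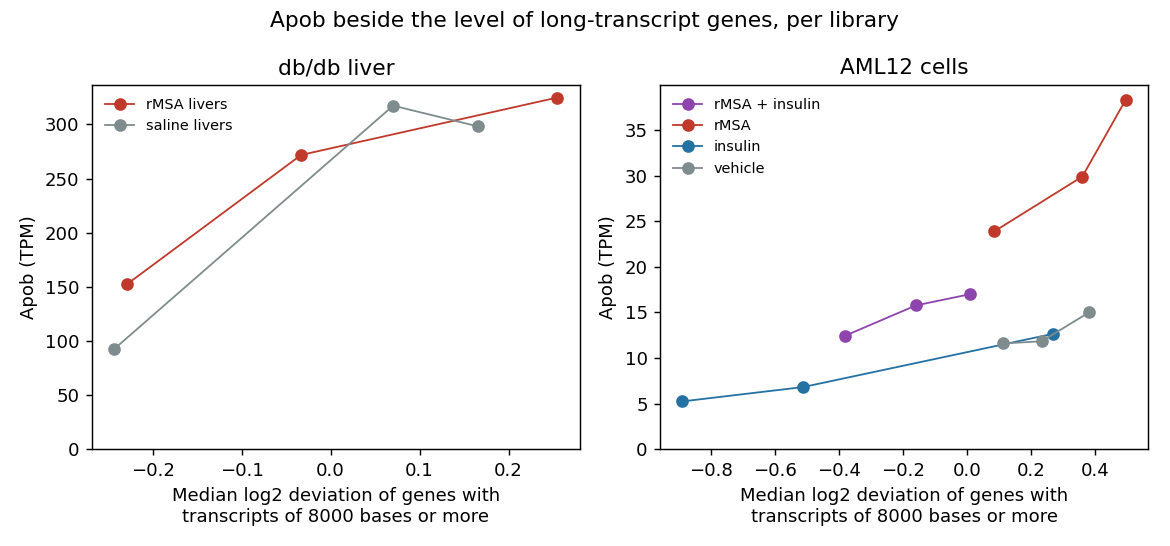
Apob in TPM against the median log2 deviation of genes with transcripts of at least 8000 bases, for livers (left) and AML12 libraries (right), with lines joining the libraries of a group in order of that deviation. In all 4 AML12 groups and in rMSA livers Apob has the same order as the long-transcript genes, and the rMSA libraries lie above the vehicle libraries at like deviations.

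In AML12 cells too, Apob varied with the class of genes with long transcripts. The order of the 3 libraries by Apob was the order by the median deviation of 540 such genes in all 4 AML12 groups, and in 5 of the 6 groups of the series (saline livers are the exception). The lowest values of both were in insulin library 2 (5.24 TPM, -0.89) and insulin library 1 (6.81 TPM, -0.51), and the highest in rMSA library 1 (38.3 TPM, 0.495). Mttp, with a longest transcript of 3963 bases, had the order of the long-transcript genes in 3 of the 4 AML12 groups and 4 of the 6 groups. The share of all genes with that order was not counted, and whether the class accounts for Apob values was not tested. With the trend on length removed, the Apob difference was 1.13 for rMSA against vehicle (adjusted p = 5.90e-06), 0.69 for rMSA + insulin against insulin (adjusted p = 1.37e-04), -0.43 for rMSA + insulin against rMSA (adjusted p = 0.00788), 0.70 for rMSA + insulin against vehicle (adjusted p = 1.04e-04) and 0.01 for insulin against vehicle (adjusted p = 0.958).

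Of the wider lists in AML12 cells, rMSA against vehicle raised 2 of 15 tested genes of assembly and secretion, 2 of 3 of HDL formation and remodelling, 2 of 9 of receptors and clearance and 1 of 6 other apolipoproteins, lowered none of these, and lowered 1 of 15 transcription factors (Usf2, -0.23), where 639 of all genes rose and 205 fell. The medians were between 0.11 and 0.40, beside 0.06 over all genes. Apobec1 had the largest change. It was at 11.2, 10.4 and 9.58 TPM with rMSA, against 3.52, 3.74 and 3.58 TPM with vehicle (log2 fold change 1.30, adjusted p = 0.00116), and at 14.2, 12.7 and 19.2 TPM with rMSA + insulin, against 2.76, 3.03 and 4.59 TPM with insulin (1.88, adjusted p = 7.07e-05). Cideb, a lipid droplet protein needed to load VLDL, rose by 0.66 with rMSA, and the apolipoprotein gene Apon by 0.92. Pcolce2 and Bmp1, which take part in processing procollagen and pro-apolipoprotein A-I, rose by 0.74 and 0.40, and Sdc1 by 0.64. Of the 11 genes of HDL formation listed, 3 could be tested, and Pcolce2 averaged 3.52 TPM with rMSA and 1.69 TPM with vehicle. For rMSA + insulin against insulin, the counts were 3 of 15 for assembly and secretion, 2 of 3 for HDL formation, 5 of 9 for receptors and 2 of 15 for transcription factors, all upward, and 1 up and 1 down of 6 other apolipoproteins. Of all genes 17.3% passed there, 1575 upward and 296 downward. Beside Apobec1, Dgat2 rose by 0.76, Tm6sf2 by 0.52, Lrpap1 by 0.44, Apon by 0.85, Pcolce2 by 0.94, Bmp1 by 0.44, Sdc1 by 0.79 and Nr1d1 by 1.15, and Clu, the gene of apolipoprotein J, fell (-0.50). The median over all genes in that comparison was 0.21, and with median centring Tm6sf2, Bmp1 and Lrpap1 no longer passed. Cideb, Bmp1 and Usf2 for rMSA against vehicle, and Clu for rMSA + insulin against rMSA, were also lost with that centring. With rMSA + insulin against rMSA, Apon (-0.90) and Clu (-0.55) fell and Nr1d1 (0.70) rose. These were 2 of 6 other apolipoproteins and 1 of 15 transcription factors tested. No gene of the remaining lists passed, where 4.05% of all genes did. Against vehicle, rMSA + insulin raised Apobec1 (1.81), Tm6sf2 (0.59), Dgat2 (0.49), Lrpap1 (0.36) and Nr1d1 (1.03) and lowered Pon3 (-1.15), Clu (-0.70), Lpcat3 (-0.48) and Srebf1 (-0.88). Counts were 3 up and 1 down of 15 for assembly and secretion, and 2 up of 9 for receptors. Transcription factors had 1 up and 1 down of 15, and other apolipoproteins 2 down of 6. Of the 3 HDL genes tested none passed, where 20.2% of all genes did. Of the 29 list calls named here for AML12 cells, 13 held on leaving out each library in turn. Among those for rMSA against vehicle Apobec1 was the 1 of 7 that did, and for rMSA + insulin against insulin Apon, Bmp1 and Clu were the ones lost. Under all the other settings, 3 of the 7 calls for rMSA against vehicle held, and 2 of the 10 for rMSA + insulin against insulin. No gene of the lists passed for insulin against vehicle or for the interaction.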

How the data were processed

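The authors deposited TPM values for 18 libraries, rounded to 2 decimals, in a liver table and an AML12 table. Submitters' notes name Trimmomatic 0.33, STAR 2.5.2b, featureCounts, Subread 1.6.0 and GRCm38, and neither they nor the methods give the annotation, the strand setting or the TPM formula. The methods state rRNA depletion and the labels also oligo(dT) beads. Positions and promoters came from RefSeq (GRCm38.p6), and transcript lengths and overlapping genes from GENCODE M21. In the liver table, 23 symbols turned into dates were repaired.

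In R 4.3.3, limma 3.58.1 was fitted to log2(TPM + 1) with 1 mean per group, an empirical Bayes trend on the mean and p-values adjusted by Benjamini-Hochberg, for the 11398 liver genes and 10826 AML12 genes that averaged 1 TPM or more. All 4 AML12 groups shared 1 fit. The procedure was tested on simulated data with independent noise for each gene. Such data hold no deviations shared across a library, so that test does not cover those seen in AML12 cells. Named genes were the 10 members and, per list and comparison, up to 4 genes with the largest absolute log2 fold change at an adjusted p under 0.05. Members and lists were chosen with earlier results of these data known. A few list genes enter the counts and medians but are not reported here by name or drawn. Ratios were compared by exact permutation with SciPy 1.17.1 and plots drawn with matplotlib 3.10.9 in Python 3.11.15.

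Alternatives were 0.1 or 5 TPM added, no filter or one at 5 TPM, median centring, quantile normalization, rescaling without the 50 highest genes, a replicate block, array weights, only the groups compared, leaving out each library, and leaving out insulin libraries 1 and 2. Removal of the length trend (lowess) was chosen after seeing the data. Same-numbered vehicle and rMSA libraries of AML12 cells had deviations correlated at 0.531, 0.139 and 0.577, which meets the rule for pairing (every pair over 0.1). The shared number is the only source of that pairing, and rMSA library 2 did not match its own number best. No other comparison met the rule. For rMSA + insulin against insulin the correlations were 0.0954, 0.789 and 0.801, so the first fell just short. There every rMSA + insulin library matched its own number best.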

Additional observations from a re-analysis of the deposited data

Results flagged for a closer look

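No member met a criterion for a closer look. For 5 reported genes of the wider lists, all 3 rMSA livers lay on one side of all 3 saline livers while all 3 AML12 libraries with rMSA lay on the other side of all 3 vehicle libraries. The log2 fold changes in liver and then in AML12 cells were -0.90 and 0.64 for Sdc1, -0.54 and 0.40 for Bmp1, -1.12 and 0.16 for Hnf4a, 2.18 and -0.54 for Srebf1, and 0.77 and -0.20 for Lpcat3. Of these, Sdc1 and Bmp1 passed an adjusted p under 0.05 in both, but their AML12 calls were lost on leaving out a library. Only the members and the list genes with a named call were searched. Over all genes tested, groups did not overlap in either direction for 45.6% in liver and 39.6% in AML12 cells (rMSA against vehicle). The share of all genes with opposite sides in liver and AML12 cells was not counted. The difference between liver and AML12 cells was not tested, since the tables, doses and durations differ.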

How the results depend on the processing

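In the livers, 5 to 6 members passed under every alternative, and Apoa4, Apoa1, Mttp, Lcat and Apom passed under each. Members without a call changed sign in liver for Apob (-0.27 with array weights, -0.37 to 0.52 leaving out 1 library), for Apoe (-0.12 with quantile normalization) and for the ratio of Apoa5 to Apoc3 (-0.045 to 0.26 leaving out 1 library).

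In AML12 cells the calls depended more on the settings. For rMSA against vehicle, where 1 member passed, 0 to 1 passed leaving out 1 library and 5 with array weights. The weights stopped before convergence in this table. Apoe changed sign there (-0.0012 with median centring, -0.049 with quantile normalization, -0.0011 with the length trend removed, -0.019 to 0.14 leaving out 1 library), without a call except with array weights (-0.16, adjusted p = 0.0178). For rMSA + insulin against insulin, where 0 passed, 1 passed with 0.1 TPM added, median centring, quantile normalization, rescaling without the 50 highest genes, the length trend removed or insulin libraries 1 and 2 left out (which leaves 1 insulin library, assumed to vary like the other groups), 4 with array weights, and 0 to 3 leaving out 1 library. For insulin against vehicle, 3 passed with array weights and 0 to 4 leaving out 1 library, and Apob changed sign with the length trend removed (0.0063). For rMSA + insulin against rMSA, 1 passed with 5 TPM added, median centring, quantile normalization or rescaling, 2 with the length trend removed or only the groups compared, and 5 with array weights. For rMSA + insulin against vehicle, 2 passed with quantile normalization, array weights or the length trend removed, and 0 to 1 leaving out 1 library. For the interaction, 1 passed with array weights. Of the named calls of list genes, 15 of 18 in liver (Apobec1, Apoc1 and Pon1 were lost) and 13 of 29 in AML12 cells held leaving out each library, and 14 and 14 held under all other settings. The causes were not tested.

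With the replicate number as a block, 5 members passed in liver and 1 for rMSA against vehicle in AML12 cells, and the block changed no call of a member in any comparison. In AML12 cells this block was shared by all 4 groups, although deviations of insulin and vehicle library 3 were correlated at -0.664. It therefore cannot stand for a pairing of rMSA and vehicle libraries, and a paired fit of those groups alone was not run. Over all genes, the counts leaving out 1 library were 2332 to 3283 in liver (main 3442), 492 to 574 for rMSA against vehicle (844), 1036 to 5833 for rMSA + insulin against insulin (1871), 0 to 7415 for insulin against vehicle (0), 56 to 124 for rMSA + insulin against rMSA (438), 1222 to 1492 for rMSA + insulin against vehicle (2190) and 0 to 336 for the interaction (4). The block gave 2171 in liver and 292 for rMSA + insulin against rMSA. With only the groups compared, the counts were 2633 for rMSA against vehicle, 309 for rMSA + insulin against insulin, 4622 for rMSA + insulin against rMSA and 5831 for rMSA + insulin against vehicle. Insulin against vehicle had up to 23 (quantile normalization) and the interaction 0 (median centring) to 8 (5 TPM added), and array weights gave 4116 in liver and 3883 to 9882 in AML12 cells. With median centring, 707 genes were higher and 740 lower for rMSA + insulin against insulin (main 1575 and 296), and 607 and 333 for rMSA against vehicle (main 639 and 205). With 3 libraries per group and unknown depth, a gene that did not pass may still differ by any amount within its interval.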
